A study of Mus musculus with 16 samples.

Results

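The 10 genes described here encode ligands, receptors, a latency protein and targets of transforming growth factor beta (TGF-beta) signalling: Tgfb1, Tgfb2, Tgfb3, Inhba, Ltbp1, Tgfbr1, Tgfbr2, Tgfbr3, Smad7 and Tgfbi. They were taken by symbol from a table of 49315 genes, and all 10 passed the filter on low values that left 24188 genes for testing. RNA had been sequenced from intervertebral discs (IVD) of 16 mice, and each library held the pooled RNA of 4 coccygeal discs of a single animal. The groups were wild type with intact discs (n = 3), wild type with injured discs (n = 4), Adam8EQ mutants with intact discs (n = 4) and Adam8EQ mutants with injured discs (n = 5). Adam8 encodes a membrane-bound metalloprotease, and the series title sets the Adam8 mutants against DBA mice. The age and sex of the animals, the way the discs were injured and the time after injury are not given in the sources used here. Replicates are separate mice, so each p-value sets a difference between groups against the spread between mice. In the main fit that spread was estimated over all 16 mice, so p-values for wild type also rest on mutant mice.

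TGF-beta ligands are secreted in a latent complex that is bound to latent TGF-beta binding proteins in the matrix, and they act only after release from it. Active ligand binds the type II receptor, which engages the type I receptor and leads to phosphorylation of Smad2 and Smad3. Activin A, a dimer of the subunit encoded by Inhba, signals to the same Smads through its own receptors, and Smad7 is a target gene that feeds back to block the type I receptors. In the disc this pathway is known for its part in the making of matrix by cells of the nucleus pulposus and annulus fibrosus.

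Values are in TPM, the share of a library's transcripts scaled for gene length, so levels of different genes may be set side by side. The implied depth was 10196362 to 24833007 reads per library, and no gene of the set fell below 304 implied reads in any mouse. The chondrocyte-type disc marker Acan (aggrecan) was at 6070 to 6880 TPM in intact wild type and 2430 to 7020 TPM in injured mutants. Krt19, a notochordal marker, was at 599 to 787 TPM in intact wild type and 2.23 to 373 TPM in injured mutants. Adam8 itself stood at 1.24 to 1.69 TPM in intact wild type, 3.52 to 66.3 TPM in injured wild type, 0.956 to 2.97 TPM in intact mutants and 16.2 to 264 TPM in injured mutants. How the EQ allele changes the gene is not stated in the labels, so this level does not check them. The summed level of 8 macrophage markers was 142 to 169 TPM in intact wild type and 130 to 216 TPM in intact mutants. In injured wild-type mice 1 to 4 it was 225, 379, 3760 and 2400 TPM, and in injured mutants 1 to 5 it was 1890, 7460, 1180, 2570 and 742 TPM. In bulk RNA of this kind, fewer cells of a type and less RNA per cell cannot be told apart.

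In intact discs the co-receptor Tgfbr3 was the most abundant of the 10 transcripts, and Smad7 the least. In intact wild type the means ran from Tgfbr3 at 392.7 ± 19.1 TPM (SD, n = 3) through Tgfbi at 273.4 ± 53.2 TPM and Tgfbr1 at 116.9 ± 17.1 TPM down to Inhba at 42.0 ± 15.4 TPM and Smad7 at 27.1 ± 3.08 TPM. In that order the ranges of neighbouring genes were apart for Tgfbr3 and Tgfbi and for Tgfbi and Tgfbr1, and overlapped for every pair of neighbours below. In intact mutants the same 2 genes led, Tgfbr3 at 469.4 ± 61.4 TPM (SD, n = 4) and Tgfbi at 344.3 ± 118 TPM, and their ranges overlapped. In injured mutants the order was another. Inhba led at 683.6 ± 415 TPM (SD, n = 5), ahead of Tgfbi at 572.2 ± 129 TPM with an overlapping range, and Ltbp1 came last at 26.9 ± 10.2 TPM.

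**Figure D1:**
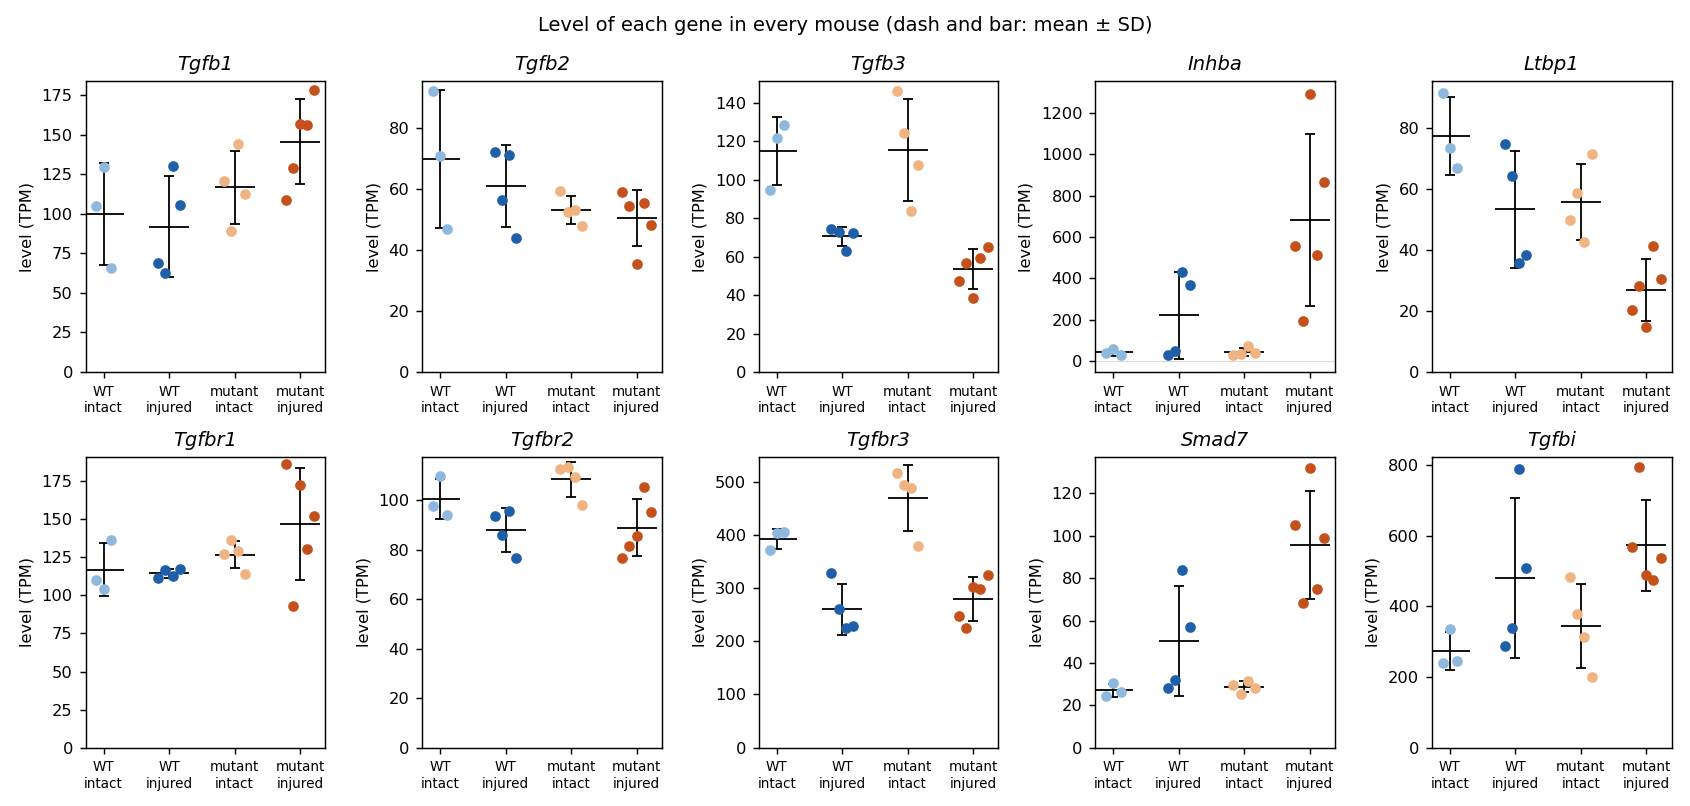
Level of the 10 genes (TPM, linear axis) in each of 16 mice, in the 4 groups; points are mice, the dash is the group mean and the bar its SD. Inhba and Smad7 are higher in every injured mutant than in any intact mutant, while Tgfb3, Ltbp1 and Tgfbr3 are lower.

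Injury was compared within each genotype first. In Adam8EQ mutants, 2 of the 10 genes rose with injury (Inhba and Smad7), 4 fell (Tgfb3, Ltbp1, Tgfbr3 and Tgfbr2) and 4 did not pass the test (Tgfb1, Tgfb2, Tgfbr1 and Tgfbi). The test was limma on log2(TPM + 1) over all tested genes, with a Benjamini-Hochberg adjusted p under 0.05. In the same comparison 30.8% of all tested genes passed, 13.1% as higher and 17.7% as lower. This balance depended on the scaling, with 3168 of 7438 called genes higher as deposited and 3910 of 7518 after median-of-ratios scaling. The ranges of the injured and intact mutants did not overlap for 2 genes that were higher and 3 that were lower, where 12.0% and 15.3% of all tested genes were apart in these directions. The median log2 change over the 10 genes was 0.04, against -0.08 over all tested genes. All changes below are differences of mean log2(TPM + 1), injured minus intact, with the moderated standard error (SE).

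The activin subunit gene Inhba had the largest change of the 10 genes. Its level in intact mutants 1 to 4 was 30.4, 35.1, 74.0 and 37.4 TPM, and in injured mutants 1 to 5 it was 557.0, 192.2, 1291, 511.1 and 867.0 TPM. Every injured mutant lay above every intact one, and the injured mice were spread widely among themselves. The log2 change was 3.75 ± 0.72 (SE), with a limma adjusted p of 0.00215, which placed Inhba 92nd from the top of 24188 tested genes. In intact wild type the level was 40.1, 58.3 and 27.6 TPM. In injured wild-type mice 1 to 4 it was 32.0, 50.1, 433.3 and 369.2 TPM, so mice 3 and 4 were high while mice 1 and 2 lay inside the range of intact discs. The wild-type change of 1.64 ± 0.81 did not pass (adjusted p = 0.316).

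Smad7, the inhibitory Smad, gave the same picture at lower levels. It stood at 29.4, 25.5, 31.6 and 28.3 TPM in intact mutants and at 105.2, 68.3, 131.9, 75.0 and 98.9 TPM in injured mutants, with no overlap. Its log2 change was 1.67 ± 0.27 (SE, limma adjusted p = 0.000913). In wild type, intact discs gave 24.6, 30.5 and 26.2 TPM and injured discs gave 28.2, 32.0, 83.8 and 57.2 TPM, again with mice 3 and 4 high and mice 1 and 2 near the intact level. The wild-type change was 0.74 ± 0.30 (adjusted p = 0.248). Across all 16 libraries the correlation of log2(TPM + 1) between Smad7 and Inhba was 0.976, and it was 0.92 after each group's mean was removed. This is a description, since the libraries share depth and cell makeup.

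The 3 TGF-beta ligand genes differed among themselves. Tgfb3 was 146.0, 124.4, 83.6 and 107.7 TPM in intact mutants and 47.5, 56.8, 38.5, 59.4 and 64.9 TPM in injured mutants, and the injured mice all lay below the intact ones. The log2 change was -1.09 ± 0.17 (SE, limma adjusted p = 0.000758). In wild type Tgfb3 went from 94.9, 121.9 and 128.5 TPM in intact discs to 74.4, 72.7, 63.2 and 72.2 TPM in injured discs, also without overlap, and the change of -0.69 ± 0.19 had an adjusted p of 0.137. Tgfb3 overlaps Ttll5 on the opposite strand (mean level 17.5 TPM), and the use of strand in counting is not stated.

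Tgfb1, the ligand most associated with wound repair, was 108.4 to 177.9 TPM in injured mutants with a median of 155.9 TPM, against 120.6, 89.0, 144.2 and 112.6 TPM in intact mutants. These ranges overlapped, and the change of 0.32 ± 0.24 did not pass (limma adjusted p = 0.336). Tgfb2 was 35.4 to 59.0 TPM in injured and 48.0 to 59.3 TPM in intact mutants, with a change of -0.09 ± 0.20 (adjusted p = 0.755). In wild type the changes of Tgfb1 and Tgfb2 were -0.13 ± 0.27 and -0.17 ± 0.22, neither past the test.

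The makeup of the ligand transcripts followed from these levels. Tgfb3 made up 40.4% ± 7.64 (SD, n = 4) of the summed TPM of the 3 ligands in intact mutants and 21.3% ± 2.67 (n = 5) in injured mutants, and the ranges of 29.7% to 46.8% and 16.7% to 23.6% did not meet. Tgfb1 made up 41.0% ± 7.73 in intact and 58.2% ± 6.82 in injured mutants, with ranges of 33.5% to 51.3% and 50.4% to 68.0%. The summed level was 266 to 326 TPM in intact and 215 to 291 TPM in injured mutants. In wild type the Tgfb3 share was 41.2% ± 10.8 in intact and 32.2% ± 5.97 in injured discs, with overlapping ranges. No test was made on these shares.

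**Figure D2:**
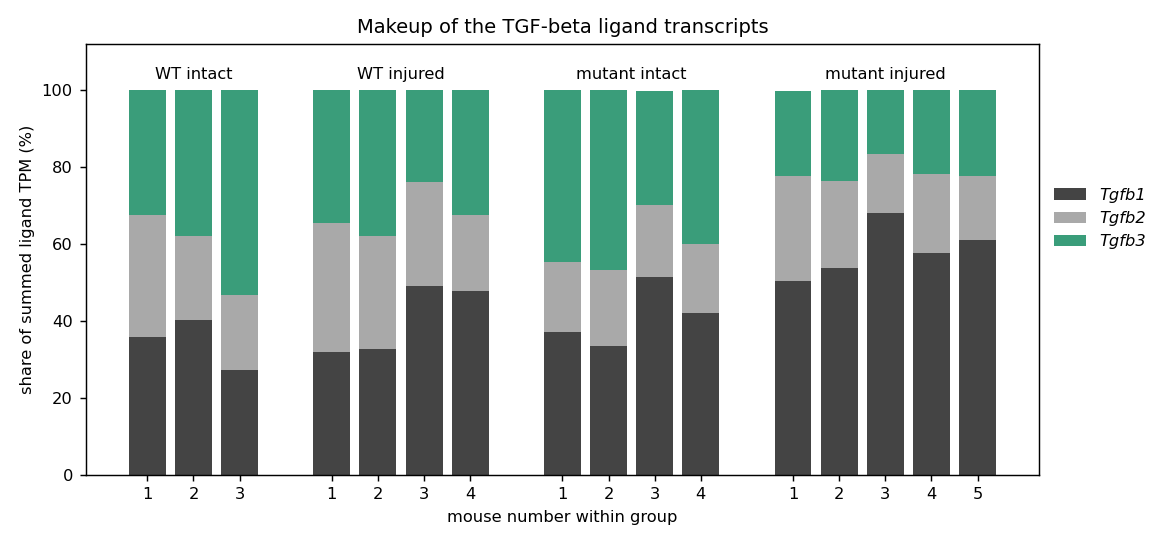
Share of Tgfb1, Tgfb2 and Tgfb3 in their summed TPM (percent, stacked bars from 0 to 100) in each mouse, ordered by group and mouse number. The Tgfb3 segment is 16.7% to 23.6% in the injured mutants and 29.7% to 46.8% in the intact mutants.

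Ltbp1 encodes a latent TGF-beta binding protein that tethers the latent ligand in the matrix. Its level was 49.9, 58.7, 42.6 and 71.4 TPM in intact mutants and 20.2, 28.1, 14.6, 41.2 and 30.3 TPM in injured mutants. The highest injured mouse came just below the lowest intact mouse. The log2 change was -1.08 ± 0.28 (SE, limma adjusted p = 0.0100). In wild type the intact discs gave 91.4, 73.4 and 66.7 TPM and the injured discs 74.7, 64.2, 35.8 and 38.4 TPM, where mice 1 and 2 were close to the intact level and mice 3 and 4 were low. The wild-type change was -0.58 ± 0.32 (adjusted p = 0.348).

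Markers of notochordal cells, the cells of the young nucleus pulposus, varied along with Ltbp1 and with other genes of the set. Of 5 tested markers 4 fell with injury in mutants. The summed level of the 6 markers found was 6220 to 13600 TPM in intact mutants. In injured mutants 1 to 5 it was 60.3, 3520, 645, 6100 and 3170 TPM. Injured mutants 1 and 3, with the lowest sums, also had the lowest Ltbp1, and mouse 4, with the highest sum, had the highest Ltbp1. In injured wild-type mice 1 to 4 the sums were 9730, 7780, 2670 and 3710 TPM. Injured mutants 1 and 3 also had the lowest Tgfb3 (47.5 and 38.5 TPM) and the highest Smad7 (105.2 and 131.9 TPM) of their group. Injured wild-type mice 3 and 4, with the lower sums, had lower Ltbp1 and higher Inhba and Smad7 than mice 1 and 2. Across all 16 libraries the correlation of log2(TPM + 1) between Ltbp1 and Smad7 was -0.915, and -0.811 after each group's mean was removed. The part of the notochordal markers in these results was not tested. Of the other lists, 7 of 8 macrophage markers, 3 of 6 neutrophil markers and 2 of 4 platelet markers rose with injury in mutants, as did 1 of 6 chondrocyte markers. Of 5 annulus fibroblast markers 3 fell, and so did 1 of 5 mural markers. Over all tested genes 13.1% rose and 17.7% fell in this comparison, so the chondrocyte and mural counts were near these shares. The summed level of the annulus markers was 1170 to 1960 TPM in intact and 863 to 2820 TPM in injured mutants, with overlap. No tested lymphocyte, endothelial, skeletal muscle or osteoblast marker passed, and only 2 of 7 lymphocyte markers were tested. The endothelial sum was still 2.71 to 9.33 TPM in intact and 9.78 to 63.7 TPM in injured mutants, without overlap. In wild type it was 4.29 to 16.9 TPM in intact and 6.87 to 183 TPM in injured discs, with overlap. The lymphocyte, skeletal muscle and osteoblast sums of intact and injured mutants overlapped. Summed levels in intact and injured mutants were 5.4 to 10.8 and 16.5 to 925 TPM for all 8 neutrophil markers. For platelet markers they were 8.24 to 12.8 and 52.4 to 416 TPM. No macrophage or platelet marker was at 0 throughout a group, and 1 of 8 neutrophil markers was at 0 in all injured mutants. In injured wild-type mice 1 to 4, with macrophage sums of 225, 379, 3760 and 2400 TPM, Inhba was 32.0, 50.1, 433.3 and 369.2 TPM. The injured mutant with the highest macrophage sum, mouse 2 at 7460 TPM, had the lowest Inhba of its group. Mutant mouse 3, with the highest Inhba, had a sum of 1180 TPM. Without injured mutant 2 the change of Inhba was 4.15 (limma adjusted p = 0.0016). The part of the annulus, immune, platelet and endothelial markers in the other results was not tested.

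**Figure D3:**
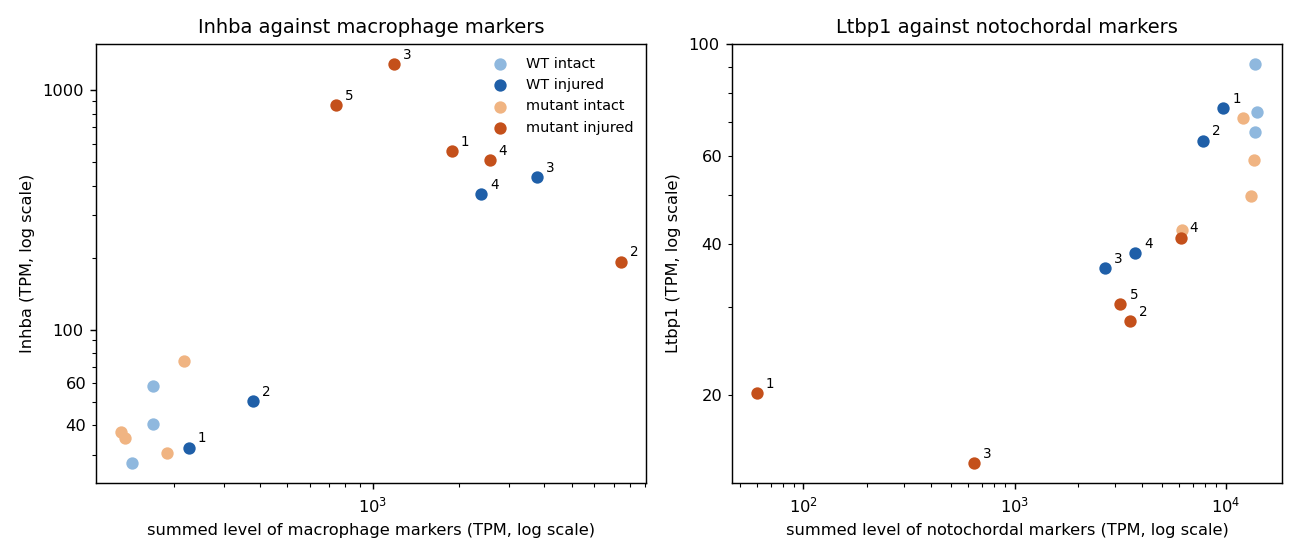
Left, Inhba level against the summed level of 8 macrophage markers; right, Ltbp1 level against the summed level of notochordal markers (TPM, log axes); each point is a mouse, and injured mice carry their number. Injured mutant 2 has the highest macrophage sum (7460 TPM) and the lowest Inhba of the injured mutants (192.2 TPM). Injured wild-type mice 3 and 4 have higher macrophage sums and higher Inhba than injured wild-type mice 1 and 2. Injured mutants 1 and 3 have the lowest notochordal sums (60.3 and 645 TPM) and the lowest Ltbp1.

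Among the 3 TGF-beta receptors of the set, the ligand-presenting co-receptor Tgfbr3 (betaglycan) fell most. It was 516.7, 493.8, 487.7 and 379.3 TPM in intact mutants and 247.7, 224.7, 301.2, 298.7 and 325.2 TPM in injured mutants, with no overlap. The log2 change was -0.75 ± 0.14 (SE, limma adjusted p = 0.00186). In wild type it went from 370.7, 402.5 and 404.8 TPM to 327.8, 260.6, 224.5 and 228.5 TPM, with the injured mice all below the intact ones, and the change of -0.61 ± 0.16 had an adjusted p of 0.131. Tgfbr3 overlaps annotated transcripts of its own strand (among them Gm42900, mean 60.9 TPM) and Gm8145 on the opposite strand (mean 68.3 TPM), between which reads could have been split.

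The signalling receptors differed less between injured and intact mutants. Tgfbr2, the type II receptor, was 112.9, 113.7, 109.6 and 98.2 TPM in intact mutants and 76.9, 81.7, 85.6, 105.4 and 95.3 TPM in injured mutants, and the ranges overlapped at mouse 4. Its change of -0.29 ± 0.10 passed narrowly (limma adjusted p = 0.0393) and lost the call in 12 of 28 alternatives, among them another scaling of the libraries (-0.20, adjusted p = 0.134). The call was also lost without injured mutant 1, 2 or 3, intact mutant 1, 2 or 3, or intact wild-type mouse 1, with adjusted p from 0.05004 to 0.1002. Tgfbr1, the type I receptor, was 92.7 to 186.2 TPM in injured mutants and 114.2 to 136.1 TPM in intact mutants. Its change was 0.17 ± 0.16 (adjusted p = 0.442). Without injured mutant 2, the mouse at 92.7 TPM, it was 0.33 with an adjusted p of 0.0446. The ratio of Tgfbr3 to Tgfbr2 was 4.31 ± 0.314 (SD, n = 4) in intact and 3.15 ± 0.343 (n = 5) in injured mutants, with ranges of 3.86 to 4.58 and 2.75 to 3.52. In wild type it was 3.92 ± 0.335 (n = 3) in intact and 2.96 ± 0.473 (n = 4) in injured discs. Those ranges, 3.67 to 4.3 and 2.34 to 3.49, did not overlap either.

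Tgfbi, a secreted matrix protein first found as a gene induced by TGF-beta, was 483.7, 378.6, 314.3 and 200.8 TPM in intact mutants and 567.4, 793.2, 487.7, 475.6 and 536.9 TPM in injured mutants. One intact mouse, at 483.7 TPM, reached into the injured range. The change of 0.78 ± 0.29 missed the threshold (limma adjusted p = 0.0545), and it passed in 9 of 28 alternatives, among them without intact mutant 1 (0.96, adjusted p = 0.0341) and without injured wild-type mouse 1 or 3. In wild type the intact discs gave 239.6, 334.7 and 245.9 TPM and the injured discs 286.3, 338.5, 789.2 and 507.2 TPM, with a change of 0.71 ± 0.33 (adjusted p = 0.286).

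**Figure D4:**
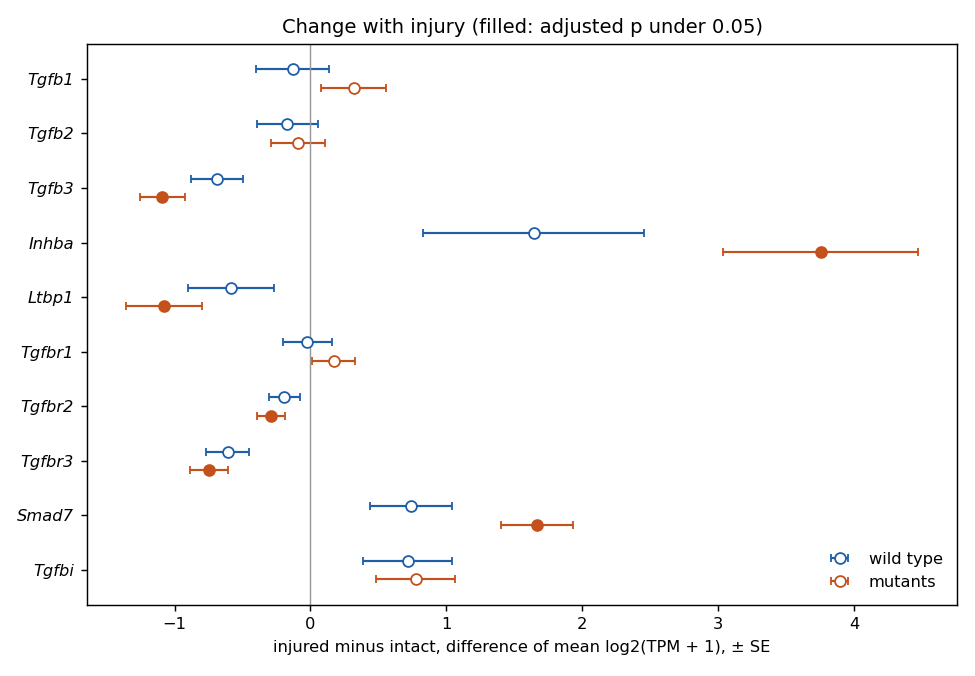
Change with injury of each gene (difference of mean log2(TPM + 1), injured minus intact, ± SE) in wild type and in mutants; filled points passed an adjusted p under 0.05. In mutants Inhba (3.75) and Smad7 (1.67) lie to the right of 0 and Tgfb3, Ltbp1, Tgfbr3 and Tgfbr2 to the left, and no wild-type point is filled.

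Library names of the mutants begin with A8 in injured mice 1 and 2 and intact mice 1 and 2, and with M in the others. What the naming stands for is not stated. Within the A8 mice, the change with injury was 3.29 for Inhba, 1.60 for Smad7 and -1.15 for Ltbp1 (limma adjusted p = 0.0795, 0.0413 and 0.0503). Within the M mice it was 3.95, 1.70 and -1.04 (adjusted p = 0.0618, 0.0484 and 0.175). For Tgfb3 and Tgfbr3 the change was -1.36 and -1.10 within the A8 mice (limma adjusted p = 0.0110 and 0.0161) and -0.83 and -0.48 within the M mice (adjusted p = 0.0640 and 0.126). In the A8 fit, with 2 mice against 2, 4 of the 10 genes and 14.8% of all tested genes passed. In the M fit, with 3 against 2, Smad7 was the only one of the 10 genes past the threshold, where 3% of all tested genes (725) passed.

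In wild type none of the 10 genes passed, where 0.116% of all tested genes did. At an unadjusted p under 0.05 there were 4 of them, against 17.2% of all tested genes. The 2 genes with no overlap between injured and intact wild-type mice, Tgfb3 and Tgfbr3, were lower in injured discs, a pattern found in 6.34% of all tested genes. None of the 10 was higher without overlap, against 9.22%. The median log2 change was -0.15 over the 10 genes and 0.01 over all tested genes. Without injured wild-type mouse 1, Tgfbr3 passed with a change of -0.72 (limma adjusted p = 0.0389).

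The change with injury was then compared between genotypes. By the interaction term, 0 of the 10 genes and 0 of all tested genes passed (0%), although the unadjusted p was under 0.05 for 1 of the 10 and for 8.18% of all tested genes. Smad7 came nearest, with a difference of 0.93 ± 0.40 between the changes in mutants and wild type (limma adjusted p = 0.580). For Inhba the difference was 2.11 ± 1.08 (adjusted p = 0.634) and for Ltbp1 it was -0.49 ± 0.42 (adjusted p = 0.783). So the calls made in mutants and not in wild type were not shown to differ between genotypes.

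Mutant and wild-type discs were also compared directly. In intact discs none of the 10 genes passed, where 0.0165% of all tested genes did, and none had an unadjusted p under 0.05, against 3.78%. The differences, mutant minus wild type, ran from -0.48 ± 0.32 for Ltbp1 to 0.28 ± 0.33 for Tgfbi. In injured discs none of the 10 passed, where 0.918% of all tested genes did, and 5 had an unadjusted p under 0.05, against 20.3% of all tested genes. The difference, mutant minus wild type, was 1.01 ± 0.27 for Smad7 (limma adjusted p = 0.0752), 2.16 ± 0.72 for Inhba (adjusted p = 0.121) and 0.70 ± 0.24 for Tgfb1 (adjusted p = 0.127). It was -0.97 ± 0.28 for Ltbp1 (adjusted p = 0.0873) and -0.42 ± 0.17 for Tgfb3 (adjusted p = 0.181). The ranges of injured mutants and injured wild type overlapped for all 10 genes, where 0.905% of all tested genes were higher and 3.86% lower without overlap. Without injured wild-type mouse 3, which had the highest Inhba and Smad7 of its group, 4 of these 5 genes passed, Smad7 at 1.30, Inhba at 2.75, Ltbp1 at -1.14 and Tgfb1 at 0.89 (adjusted p = 0.00785, 0.0305, 0.0309 and 0.0344), where 9.31% of all tested genes did. Without injured mutant 2, 2 of the 10 genes and 2.79% of all tested genes passed, and without injured mutant 4 these were 1 and 2.47%.

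The stretch before the start site is shown for Inhba, which changed most upward, and for Ltbp1, a gene that changed in the other direction. Inhba lies at chr13:16011851-16031621 on the plus strand and Ltbp1 at chr17:75005568-75392512 on the plus strand (GRCm38). The sequences are the 250 bases upstream of the first start in RefSeq (GRCm38.p6), chr13:16011601-16011850 and chr17:75005279-75005528, both plus strand. Capitals mark a match to the cAMP response element.
Inhba: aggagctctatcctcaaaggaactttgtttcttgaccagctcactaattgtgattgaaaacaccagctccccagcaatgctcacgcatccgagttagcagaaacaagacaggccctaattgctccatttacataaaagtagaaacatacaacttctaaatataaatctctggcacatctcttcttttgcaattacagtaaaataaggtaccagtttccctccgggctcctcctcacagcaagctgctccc
Ltbp1: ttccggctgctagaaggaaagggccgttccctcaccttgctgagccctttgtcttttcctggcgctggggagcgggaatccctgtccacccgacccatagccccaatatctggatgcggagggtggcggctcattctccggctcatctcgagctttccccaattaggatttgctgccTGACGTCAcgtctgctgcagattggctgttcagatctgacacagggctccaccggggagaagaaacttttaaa
Both strands were searched for the AP-1 element TGANTCA, the cAMP response element TGACGTCA, the Smad box CAGAC and the Smad palindrome GTCTAGAC. Among 32536 windows of 250 bases in the table, 6.73%, 1.56%, 42.2% and 0.169% held them. The Inhba window held none of the 4. The Ltbp1 window shown held the cAMP response element at position -73 and a Smad box at -64 from the start. The window of another Ltbp1 start, not shown, held no cAMP response element and 2 Smad box matches. Among the other genes found, no window held the AP-1 element, the cAMP response element or the Smad palindrome. Smad boxes lay in windows of Tgfb2, Tgfbr2, Tgfbi and Tgfbr1 (not at its first start), and none in that of Tgfb1. These matches are descriptions of the letters in these windows. Of the 10 genes, 7 were found in the table.

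Other genes of the pathway were read from 7 lists that hold 57 genes, of which 54 were tested. With injury in mutants 19 rose, 10 fell and 25 did not pass, where 13.1% of all tested genes rose and 17.7% fell. The median log2 change was 0.13, against -0.08 over all tested genes. Of 16 tested target genes 8 rose and 1 fell, with a median of 0.69. Timp1, an inhibitor of metalloproteases, went from 32.7 ± 9.89 TPM (SD, n = 4) to 642.5 ± 204 TPM (n = 5), a log2 change of 4.24 ± 0.43. Snai1 and Klf10, which encode transcription factors, rose by 1.62 ± 0.20 and 1.01 ± 0.18. The limma adjusted p was 0.000127 for Timp1, 0.0003 for Snai1 and 0.00172 for Klf10. Within the M mice Klf10 did not pass (limma adjusted p = 0.0852). In wild type Snai1 and Klf10 changed by 1.04 ± 0.23 and 0.31 ± 0.21. Neither passed (limma adjusted p = 0.101 and 0.453), though for Snai1 every injured mouse lay above every intact one. Timp1 was also the 1 list gene that passed in wild type, with a change of 3.33 (adjusted p = 0.0248), a call lost in 10 of 28 alternatives, among them leaving out any 1 intact wild-type mouse, injured wild-type mouse 4 or injured mutant 5.

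Of 11 tested genes of latency and activation, 5 rose and 3 fell in injured mutants. Over all tested genes 13.1% rose and 17.7% fell. The other latent TGF-beta binding proteins did not move as 1 group with Ltbp1. Ltbp3, the most abundant of them, was at 317.2 ± 33.9 TPM in intact and 363.2 ± 139 TPM in injured mutants and did not pass (0.11 ± 0.24, limma adjusted p = 0.763). Ltbp4 went from 177.4 ± 31.2 TPM in intact to 55.0 ± 21.2 TPM in injured mutants (log2 change -1.76 ± 0.26, limma adjusted p = 0.000705), with injured mice at 25.1 to 74.8 TPM and intact mice at 141.9 to 208.6 TPM. Ltbp2, whose product does not bind latent TGF-beta, went the other way, from 26.6 ± 2.96 to 139.3 ± 35.2 TPM (2.32 ± 0.36, adjusted p = 0.000785). Thbs1, which encodes thrombospondin 1, an activator of latent TGF-beta, fell from 2061 ± 372 to 594.7 ± 216 TPM (-1.84 ± 0.27, adjusted p = 0.000689). Itgb5, an integrin subunit, fell by 0.60 on the log2 scale. Within the M mice the calls of Ltbp2 and Itgb5 were lost (limma adjusted p = 0.0560 and 0.0749). In wild type Ltbp2, Ltbp4, Thbs1 and Itgb5 changed by 2.13 ± 0.41, -0.45 ± 0.30, -0.85 ± 0.31 and -0.46 ± 0.12. None passed (limma adjusted p = 0.0721, 0.437, 0.2075 and 0.135). The ranges of injured and intact wild-type mice did not overlap for Ltbp2 and Itgb5, and overlapped for Ltbp4 and Thbs1.

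Among 11 tested inhibitors inside the cell, 4 rose and 1 fell in injured mutants. Beside this count and those of the lists that follow, 13.1% of all tested genes rose and 17.7% fell. Skil, a corepressor of Smads, rose by 1.07 ± 0.19 and Tgif1, another corepressor, by 1.52 ± 0.35 (limma adjusted p = 0.00141 and 0.0057). Pmepa1, which binds Smad2 and Smad3, rose by 1.37 ± 0.33 (limma adjusted p = 0.0079). The decoy receptor gene Bambi fell by 0.86 on the log2 scale (limma adjusted p = 0.00813). Within the M mice these 4 calls were lost (limma adjusted p = 0.0688, 0.173, 0.0899 and 0.254). Within the A8 mice those of Tgif1 and Pmepa1 were lost (limma adjusted p = 0.0588 and 0.139). In wild type Skil, Tgif1, Pmepa1 and Bambi changed by 0.56 ± 0.21, 0.86 ± 0.40, 0.42 ± 0.38 and -0.58 ± 0.24. None passed (limma adjusted p = 0.222, 0.285, 0.583 and 0.251), and only Bambi had ranges without overlap. Of 5 tested Smads and cofactors, Smad4 (-0.38 ± 0.08) and Zfyve9 (-0.33 ± 0.11) fell and 3 did not pass, Smad2 at 0.12 ± 0.09 and Smad3 at -0.08 ± 0.11 among them. The call of Zfyve9 was lost without injured mutant 2 or 4 or intact mutant 1, 2 or 3 (limma adjusted p from 0.0517 to 0.0806). Within the A8 and the M mice, Smad4 (limma adjusted p = 0.0579 and 0.106) and Zfyve9 (0.169 and 0.324) did not pass. Fst, encoding the activin-binding protein follistatin, rose from 0.452 ± 0.365 to 6.15 ± 6.69 TPM (1.91 ± 0.49, adjusted p = 0.0103). Its injured mutants 1 to 5 stood at 5.54, 17.75, 0.917, 3.44 and 3.09 TPM, so mouse 2 set much of that mean. Without mouse 2 the change was 1.46 (limma adjusted p = 0.0123), and with a pseudocount of 0.1 it was 3.29. Within the M mice it was 1.25 and did not pass (adjusted p = 0.158). In wild type the change of Fst was 1.24 ± 0.56 (limma adjusted p = 0.278), with every injured mouse above every intact one. Fstl3, the other extracellular inhibitor, did not pass. Of 4 tested other ligands and subunits, Inha, the inhibin alpha subunit, fell by 0.58 on the log2 scale and the other 3 did not pass. The call of Inha was lost within the A8 and within the M mice (limma adjusted p = 0.134 and 0.0755). In wild type Smad4, Zfyve9 and Inha changed by -0.188 ± 0.092, -0.185 ± 0.120 and -0.0999 ± 0.154, and none passed (limma adjusted p = 0.307, 0.432 and 0.763).

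The activin receptors changed in both directions in injured mutants, where 1 of 5 further receptors rose and 2 fell. Over all tested genes these shares were 13.1% and 17.7%. The type II receptor genes Acvr2b and Acvr2a changed by -1.12 ± 0.17 and -1.17 ± 0.34, and the type I receptor gene Acvr1b by 0.51 ± 0.14 (limma adjusted p = 0.000764, 0.0171 and 0.0131). The call of Acvr2a was lost without intact mutant 1 or 2 (adjusted p = 0.0511 and 0.0597) and within the M mice (limma adjusted p = 0.316). That of Acvr1b was lost within the A8 and within the M mice (limma adjusted p = 0.0921 and 0.229). In wild type Acvr2b, Acvr2a and Acvr1b changed by -0.44 ± 0.20, -0.98 ± 0.38 and 0.445 ± 0.158. None passed (limma adjusted p = 0.271, 0.232 and 0.1995), and only Acvr2a had ranges without overlap. Acvr2b was the 1 list gene that passed between genotypes, in injured discs. It was 5.71, 8.69, 4.83, 6.29 and 5.51 TPM in injured mutants and 12.96, 14.3, 8.44 and 10.03 TPM in injured wild type, and the ranges overlapped at mutant 2 and wild-type mouse 3. The difference was -0.78 ± 0.17 (limma adjusted p = 0.0490), and 20 of 28 alternatives lost the call, among them leaving out any 1 mouse other than injured mutants 2 and 4 and injured wild-type mouse 3. No list gene passed in intact discs or by the interaction term.

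**Figure D5:**
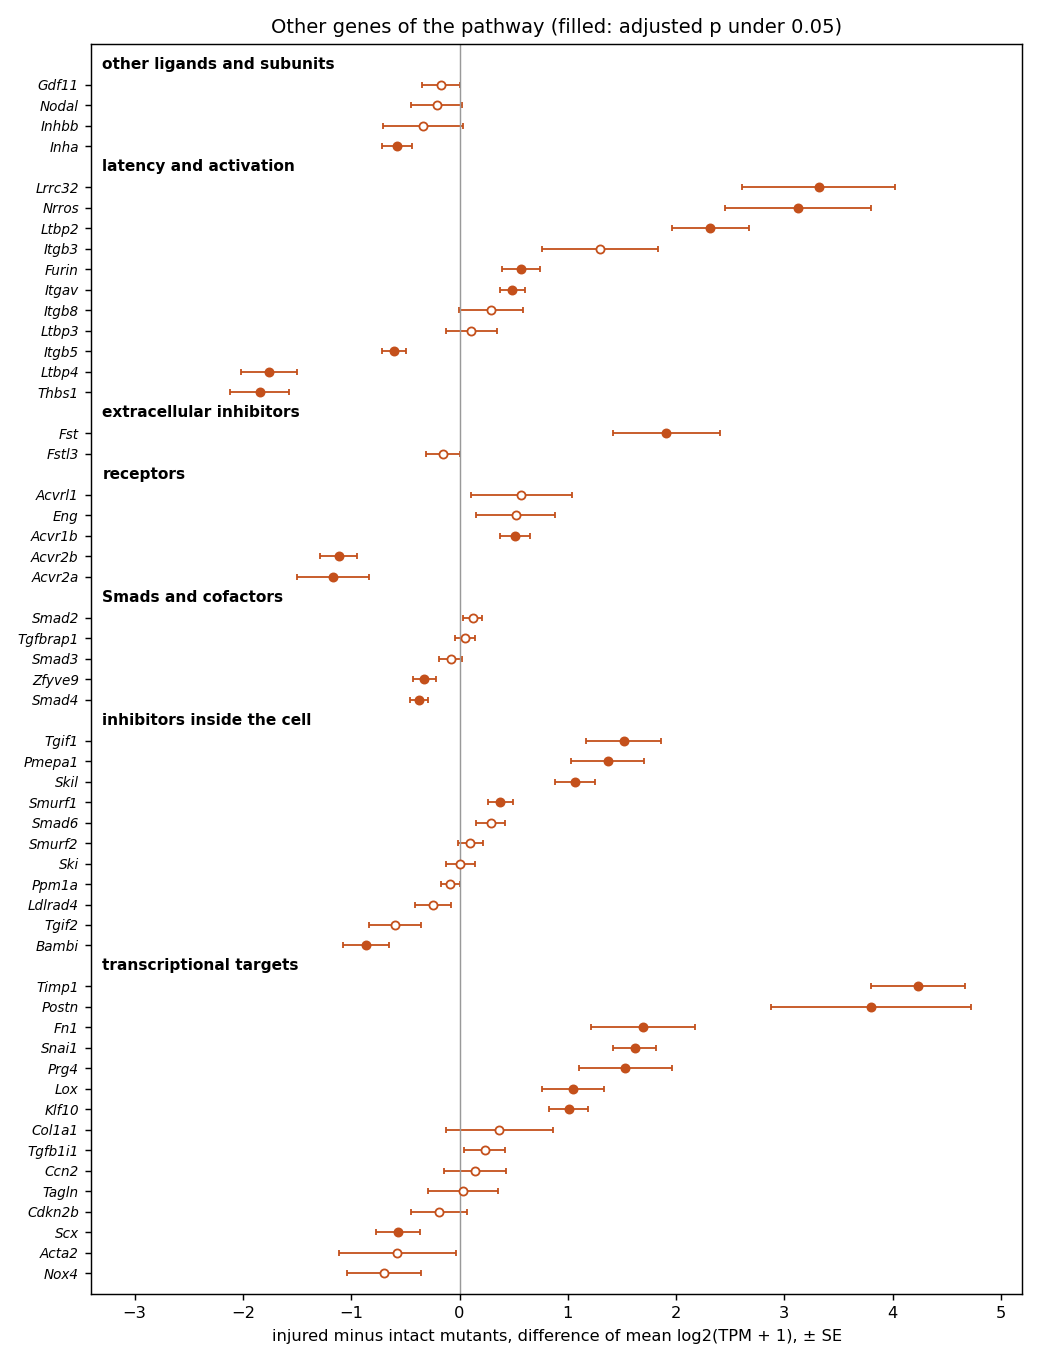
Change with injury in mutants (difference of mean log2(TPM + 1), ± SE) for tested genes of 7 pathway lists; filled points passed an adjusted p under 0.05. The target gene Timp1 (4.24) lies farthest to the right of those drawn, and Thbs1 (-1.84) and Ltbp4 (-1.76) lie far to the left.

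Genes whose pattern was most like that of a gene of the set were ranked by Pearson's r of log2(TPM + 1) over the 16 libraries (genes averaging 5 TPM or more). The values are descriptions, since the libraries share depth, injury and cell makeup. For Inhba the nearest were Tnfrsf12a (0.981), Hmga2 (0.978) and Slc22a4 (0.978), and for Smad7 they were Abl2 (0.985), Hmga2 (0.983) and Medag (0.981). Hmga2 was thus near both. For Ltbp1 the nearest were Gldn (0.987), Mapk4 (0.977) and Zfp990 (0.974), for Tgfb3 Ctdsp1 (0.977), Wfdc1 (0.964) and Itgb5 (0.959), and for Tgfbr3 Cry2 (0.941), Kat2b (0.922) and Lims2 (0.921). After removal of group means, r was 0.947 for Tnfrsf12a with Inhba and 0.97 for Abl2 with Smad7, and fell to 0.584 for Kat2b with Tgfbr3.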

How the data were processed

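Per the labels' protocols, total RNA was isolated with Trizol and ribosomal RNA was depleted before library preparation, although the molecule field reads polyA RNA. The submitters' processing notes name bcl2fastq 2.20 and GRCm38; the aligner, counter and use of strand are not given in the sources used here. The authors deposited TPM values, 1 column per mouse. TPM keeps no depth, so implied reads were computed from GENCODE M21 exon lengths, with 94.1% to 95.0% of low values (under 20 reads) within 0.05 of a whole number. They give approximate depth only.

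Groups came from the titles. A gene entered the test if 3 or more libraries reached 1 TPM. The test was limma 3.58.1 in R 4.3.3 (eBayes with a trend) on log2(TPM + 1), with all 16 libraries in 1 fit and Benjamini-Hochberg adjustment over all 24188 tested genes. The pseudocount understates changes of low genes. The script was tested on simulated data. The members, the gene lists and the tests were chosen with earlier results of these data known. All 10 members are named; of each other list, the 4 genes with the smallest p for injury in mutants and any gene called in another contrast could be named (1 such gene is counted but not reported here), and the 3 genes most like each member by correlation. Ltbp3 was named outside the rule for list genes, as the most abundant of the other latent TGF-beta binding proteins. Mouse numbers shared between groups did not pair the libraries. Alternatives covered the pseudocount, filter, scaling, weights, samples fitted, a replicate block, library naming and leaving out each mouse. A fit of the implied reads with voom and a fit with only A8-named mutants were added after seeing the data. Sequences are from RefSeq, GRCm38.p6.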

Additional observations from a re-analysis of the deposited data

How the results depend on the processing

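Of 58 named results, 8 changed direction in at least 1 of 28 alternatives, and none of these 8 had passed the test. Their changed values were, for injury in wild type, 0.021 (sample weights) and 0.0015 (replicate block) for Tgfbr1, and for injury in mutants 0.021 for Tgfb2 and -0.0017 for Tgfbr1 (only A8-named mutants), 0.046 for Nodal and 0.017 for Smad3 (only M-named mutants) and 0.0049 for Smad3 (median-of-ratios scaling). Tgfbi between genotypes in intact discs was -0.10 with only M-named mutants. Leaving out 1 mouse at a time gave -0.40 to 0.080 for Tgfb1, -0.43 to 0.051 for Tgfb2 and -0.10 to 0.092 for Tgfbr1 in wild type, and -0.15 to 0.028 for Tgfb2 in mutants; the causes were not tested.

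With only M-named mutants 1 of the 10 genes was called for injury in mutants in place of 6, and 725 in place of 7438 of all genes; with only A8-named mutants these were 4 and 3583. The cause was not tested. Sample weights called 2 of the 10 genes between genotypes in injured discs in place of 0, where 4.42% of all tested genes were called in place of 0.918%. Leaving out 1 mouse gave 0 to 1 of the 10 for injury in wild type, 5 to 7 for injury in mutants and 0 to 4 between genotypes in injured discs. Over all genes it gave 2 to 452 in place of 28, 5332 to 7985, and 7 to 2253 in place of 222. The other alternatives gave 4 to 77 for injury in wild type and 2 to 1070 between genotypes in injured discs; in intact discs all alternatives gave 1 to 8 in place of 4. The interaction had 0 calls, but 4 with sample weights and up to 15 without injured wild-type mouse 3. Of the 222 genes 46 were higher, against 72 of 154 with median-of-ratios scaling and 32 of 93 with quantile normalization; for injury in wild type these were 26 of 28, 15 of 17 and 27 of 35, and for injury in mutants 3168 of 7438, 3910 of 7518 and 3440 of 7179.

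Same-numbered mice did not deviate together (r from -0.217 to 0.151 over 21 pairs, 1 over 0.1). With the replicate block, 5 of the 10 genes were called in mutants, Tgfbr2 being lost (-0.32, limma adjusted p = 0.0786), along with Zfyve9, Timp1 in wild type and Acvr2b; over all genes 6191 were called in mutants, 5 in wild type and 11 between genotypes in injured discs, and none of the 10 genes in the other comparisons.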
